A study of Rattus norvegicus with 9 samples.

Results

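The proteasome genes of the rat heart were followed in left ventricles taken at day 28 after surgery. They were chosen by name alone: every gene whose symbol is Psma to Psmg followed by a number, which gave 48 of the 35843 genes in the table. By the standard roles of their products they fall into 7 alpha and 7 constitutive beta subunits of the 20S core, 3 inducible beta subunits of the immunoproteasome, 6 ATPases and 11 non-ATPase subunits of the 19S cap, 3 chaperones of the 19S cap, 4 activators, 1 inhibitor, 4 chaperones of the 20S core, and 2 subunits known from testis (Psma8) and thymus (Psmb11). RNA was sequenced from 3 rats in each of 3 groups of adult male Sprague-Dawley rats. Group Sham was operated on without ligation and gavaged with saline, group MI had the left anterior descending coronary artery tied off and received saline, and group MI + DAPA (1st d), called the DAPA group here, had the same ligation and received dapagliflozin, an inhibitor of the renal sodium-glucose cotransporter SGLT2, at 1 mg/kg by daily gavage from the first day. Border tissue beside the infarct was what the study mainly took for its molecular work, with the matching part of the heart in group Sham. Of the sequenced tissue itself its text speaks as normal myocardium for group Sham and as infarct myocardium for groups MI and DAPA. The RNA is that of the whole tissue, so fewer cells of a type and less RNA per cell cannot be told apart.

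The proteasome is the protease that degrades proteins tagged with ubiquitin. Its 20S core is a barrel of stacked rings, outer rings of alpha subunits and inner rings of beta subunits, and the cutting sites lie inside on Psmb5, Psmb6 and Psmb7. The 19S cap binds the tagged protein, removes the ubiquitin and threads the unfolded chain into the core with its ring of ATPases. Interferon induces Psmb8, Psmb9 and Psmb10, which take the places of Psmb5, Psmb6 and Psmb7 in newly built cores and make the immunoproteasome, abundant in immune cells and known for the peptides it yields for class I antigen presentation. Psme1 and Psme2 form the interferon-inducible PA28 activator, Psme3 a nuclear activator that works without ubiquitin, and Psme4 the PA200 activator. In the heart the system clears damaged and misfolded proteins of the contractile apparatus.

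Values are FPKM, fragments scaled by the length of the gene and the size of the library, as deposited by the authors, and are levels per length; differences are of mean log2(FPKM + 1). Between 13602003 and 17212095 reads were recovered per rat from the table. Reads on nuclear genes and unnamed loci made up 5703640 to 13174183 of them, with the fewest in group Sham. A proteasome gene that was tested in all comparisons had between 72 and 3326 reads in a rat. The scale matters for any comparison with group Sham. Mitochondrial genes took 61.1% to 66.9% of the reads in the Sham rats, 7.07% to 19.1% in the MI rats and 17.5% to 32.0% in the DAPA rats. Dividing by all recovered reads in place of the authors' denominator gave a median difference of all genes of 0.93 in MI vs. Sham, of -0.21 in DAPA vs. MI and of 0.75 in DAPA vs. Sham on the log2 scale, moves of 0.93, -0.20 and 0.74. Directions below are those on the authors' scale, that is, relative to the typical gene.

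Markers of other cells differed between the groups and within them. Of 11 leukocyte markers tested, 9 were higher after infarct (MI vs. Sham), beside 19.5% of all genes higher and 19.5% lower, with summed FPKM of 58.6 to 116 in the Sham rats, 269 to 640 in the MI rats and 165 to 307 in the DAPA rats. All 8 fibroblast markers were higher in group MI, from 436 to 713 summed in group Sham against 3770 to 7367 in group MI and 2321 to 4060 in the DAPA group. The 10 cardiomyocyte markers summed to 8714 to 12555 in the Sham rats, 2693 to 14031 in the MI rats and 11118 to 23632 in the DAPA rats. RNA of heart muscle was thus present in every rat, but in MI rat 2 the fibroblast markers had the larger sum, 7367 against 2693. Of the cardiomyocyte markers, 2 (Myh6 and Tnni3) were lower in MI vs. Sham. Of 4 endothelial markers, 3 were lower in group MI, and the sums were 209 to 358 in the Sham rats, 111 to 138 in the MI rats and 151 to 188 in the DAPA rats. MI rat 2 and DAPA rat 3 stood apart. MI rat 2 was the lowest of its group in 10 of 10 cardiomyocyte markers and the highest in 11 of 11 leukocyte markers, and DAPA rat 3 was the lowest of its group in 9 of 10 cardiomyocyte markers and the highest in 7 of 11 leukocyte markers. The same counts over all genes were not computed, here or for the lists below.

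The constitutive proteasome is strongly expressed in this tissue. The 14 subunits of the 20S core summed to 1287 to 1405 FPKM in the Sham rats, 1018 to 1119 in the MI rats and 1115 to 1400 in the DAPA rats. The 17 subunits of the 19S cap summed to 828 to 914 FPKM in the Sham rats, 624 to 757 in the MI rats and 764 to 955 in the DAPA rats. For the core, all 3 MI rats lay below all 3 Sham rats, and DAPA rat 3 came within the range of group MI while the other DAPA rats reached that of group Sham. For the cap, all 3 MI rats lay below every Sham rat as well, and below every DAPA rat.

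Of the 48 genes, 45 passed the minimum of 1 FPKM in at least 3 rats in MI vs. Sham. Those not tested were Psma8, Psmb11 and Psme1. Psma8 was above 0 in 1 rat and Psmb11 in 2 rats. Psme1 had between 0 and 6 reads in a rat, while its partner Psme2 stood between 35.8 and 91.9 FPKM. In the RefSeq annotation the coding genes run Psme1, Emc9, Psme2, and 3 further loci carry the name of Psme1 as copies. Copies or pseudogenes are annotated for 19 of the 48 genes, 52 in all and the most, 10, for Psmb3, so reads of these genes may be shared with near-identical loci and their levels are uncertain.

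MI vs. Sham asked how the infarct changed these genes. On the authors' scale 9 of the 45 genes were lower in group MI (20% of them, against 19.5% of the 13485 genes tested) and 3 were higher (6.67%, against 19.5% of all genes tested), by limma with Benjamini-Hochberg adjustment under 0.05. After scaling to all recovered reads 0 were lower and 39 were higher (86.7%), beside 3.82% of all genes lower and 66% higher. On the authors' scale the share that was lower is that of genes in general. The counts rest on few rats: 3 were lower without MI rat 1 (beside 13.2% of all genes) and 5 without Sham rat 2 or Sham rat 3 (beside 14.5% and 12.9%), and 1 was higher without any 1 of MI rats 1, 2 and 3 (beside 11.8%, 13.3% and 14% of all genes). The median difference was -0.17, beside -0.01 over all genes tested, and 31 of 45 genes had a negative difference, beside 50.3% of all genes. With the study's thresholds of an unadjusted p under 0.05 and a log2 difference over 1, Psmb10 was lower and no gene was higher, beside 10.3% of all genes lower and 12.1% higher.

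**Figure D1:**
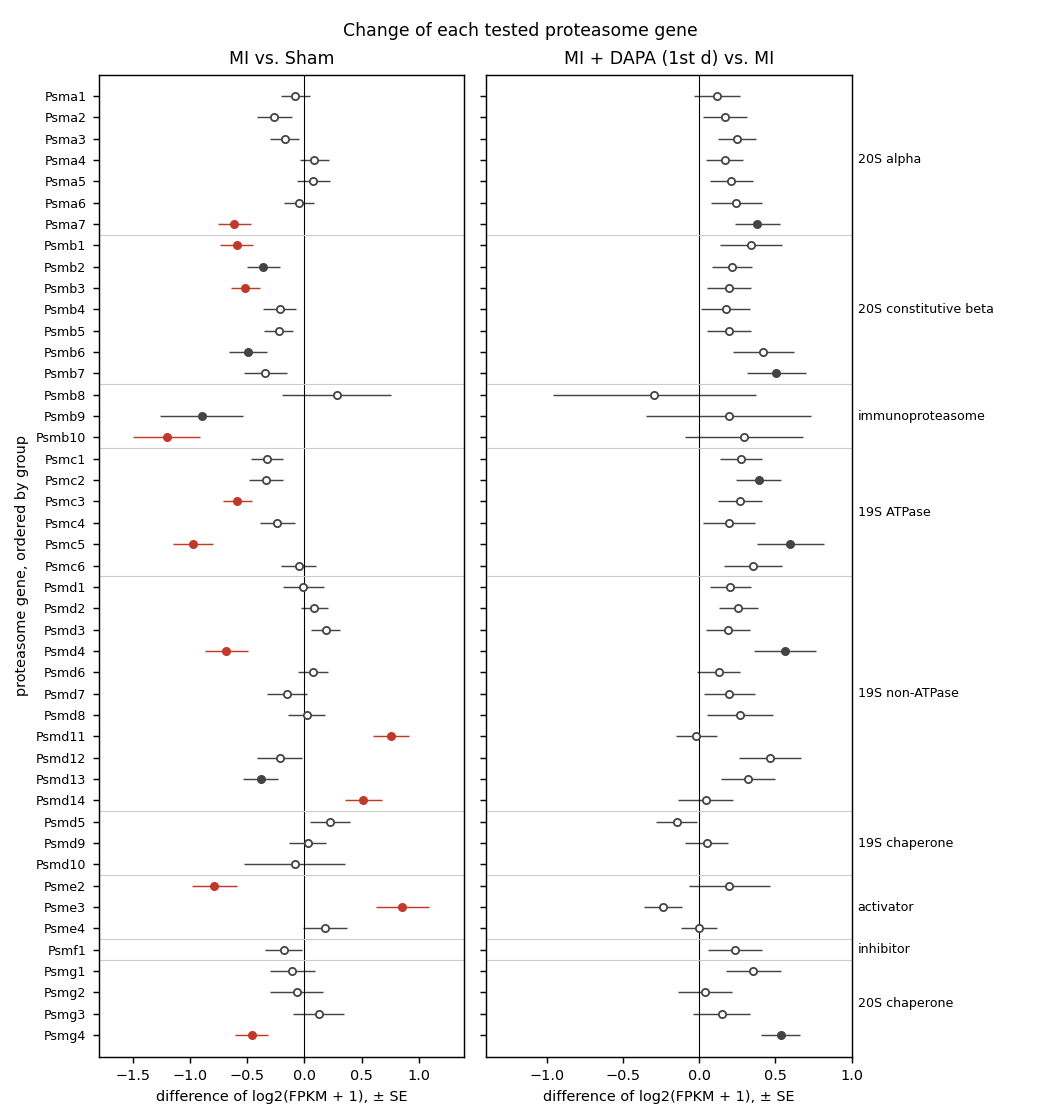
Difference of mean log2(FPKM + 1), with its limma standard error, for each of the 45 tested proteasome genes in MI vs. Sham (left) and the 44 tested in DAPA vs. MI (right), grouped by role, on the authors' scale. Red marks an adjusted p under 0.05, a filled point an unadjusted p under 0.05. On the left 9 genes are called lower and 3 higher; on the right 0 are called and 39 of 44 points lie above 0. Scaling to all recovered reads turns most values on the left positive and leaves 20 above 0 on the right.

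The lower genes were spread over the particle. In the 20S core they were Psma7, Psmb1 and Psmb3. Psma7, an alpha subunit of the outer ring, stood at 166, 201 and 179.6 FPKM in group Sham and at 109.8, 118 and 127 in group MI. The groups did not overlap, and the difference was -0.61 ± 0.14 (SE; adjusted p = 0.0149). Psmb1, a structural beta subunit, stood at 178, 201 and 212 FPKM in group Sham and at 134, 117 and 140.4 in group MI. Again no MI rat reached a Sham rat, with a difference of -0.59 ± 0.15 (adjusted p = 0.0187). Psmb3, another non-catalytic beta subunit, was at 113, 108 and 111 FPKM in group Sham and at 74.4, 73.5 and 83.5 in group MI, a difference of -0.52 ± 0.13 (adjusted p = 0.0181). The call for Psma7 was lost without MI rat 1 (adjusted p = 0.0687). Those for Psmb1 and Psmb3 were lost without Sham rat 3 or MI rat 1 (adjusted p up to 0.0684 and 0.0787). The alpha ring as a whole had 5 of 7 negative differences with a median of -0.08, and the 7 constitutive beta subunits had 7 of 7 with a median of -0.36. On the scale of all recovered reads the median of the 20S core was 0.86, or -0.07 relative to all genes.

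The 3 constitutive catalytic subunits did not pass the adjusted threshold in the main fit. Psmb5, which cuts after hydrophobic residues, was at 76.2, 80.99 and 84.8 FPKM in group Sham, 70.8, 63.9 and 72.01 in group MI and 80.7, 86.9 and 69.8 in the DAPA group. Psmb6, which cuts after acidic residues, was at 131, 125 and 155 FPKM in group Sham, 108, 81.6 and 102 in group MI and 134, 154 and 105 in the DAPA group. Psmb7, which cuts after basic residues, was at 36.4, 43.1 and 49.9 FPKM in group Sham, 35.3, 27.3 and 38.9 in group MI and 54.00, 51.8 and 39.6 in the DAPA group. MI rat 2 had the lowest value of the 9 rats for each of the 3. The differences MI minus Sham were -0.23 ± 0.13 for Psmb5, -0.49 ± 0.17 for Psmb6 (adjusted p = 0.0527) and -0.34 ± 0.19 for Psmb7. With quantile normalization the difference of Psmb6 was -0.56 and passed (limma adjusted p = 0.0281).

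In the 19S cap the ATPases and the lid and base subunits moved unevenly. All 6 ATPases had a negative difference, with a median of -0.33. Psmc5 showed the largest: 86.7, 114 and 107 FPKM in group Sham against 57.5, 42.7 and 54.3 in group MI, without overlap, a difference of -0.98 ± 0.18 (adjusted p = 0.00584). Psmc3, another ATPase of the ring, was at 104, 107 and 112 FPKM in group Sham and 73.3, 65.2 and 75.7 in group MI, a difference of -0.59 ± 0.13 (adjusted p = 0.0123). Both stayed below 0.05 when any 1 of the 6 rats was left out.

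The 11 non-ATPase subunits had 6 positive and 5 negative differences and a median of 0.02. Psmd4, a ubiquitin receptor, fell from 81.6, 104 and 84.03 FPKM in group Sham to 60.1, 44.2 and 63.5 in group MI, a difference of -0.68 ± 0.19 (adjusted p = 0.0256). Psmd11, a scaffold subunit of the lid, rose from 9.83, 11.9 and 8.76 to 18.2, 16.6 and 18.5 FPKM, a difference of 0.76 ± 0.15 (adjusted p = 0.00926) that stayed below 0.05 in all 6 fits without 1 rat. Psmd14, the metalloprotease that removes ubiquitin chains, rose from 14.4, 18.3 and 13.7 to 20.9, 21.4 and 24.97 FPKM, a difference of 0.51 ± 0.16 (adjusted p = 0.041). The call for Psmd14 stood only in the fit without Sham rat 2 among the 6 fits without 1 rat, with adjusted p up to 0.123 in the other 5. That for Psmd4 was lost without Sham rat 2, Sham rat 3, MI rat 1 or MI rat 2, with adjusted p up to 0.0716.

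The activators went apart. Psme3 stood at 7.12, 3.61 and 6.51 FPKM in group Sham and at 11.3, 10.9 and 10.3 in group MI. It rose by 0.86 ± 0.23 (adjusted p = 0.0257), with every MI rat above every Sham rat, but the call was lost without any 1 of the MI rats (adjusted p up to 0.0772). Psme2 stood at 76.3, 91.9 and 63.3 FPKM in group Sham and at 35.8, 51.6 and 45.2 in group MI. It fell by 0.79 on the log2 scale (SE 0.20, adjusted p = 0.0196), without overlap, and the call was lost without Sham rat 2 or MI rat 1 (adjusted p up to 0.0693). Psme4 stood at 8.95, 14.4 and 12.2 FPKM in group Sham, 13.4, 12.3 and 14.3 in group MI and 13.6, 13.5 and 12.9 in the DAPA group, with the MI and DAPA values inside the range of group Sham. Among the chaperones of the 20S core, Psmg4 was lower in group MI, at 26.3, 22.8 and 27.4 FPKM against 39.3, 35.5 and 31.7 in group Sham, a difference of -0.46 ± 0.15 (adjusted p = 0.042) that was above 0.05 in all 6 fits without 1 rat. Psmg1, Psmg2 and Psmg3 had differences between -0.11 and 0.13. Psmf1, the PI31 inhibitor of the core, had a difference of -0.18 ± 0.16, and the 19S chaperones Psmd5, Psmd9 and Psmd10 had differences of 0.22, 0.03 and -0.09. Psmd10, at 0 to 22 reads in a rat, was the weakest gene tested.

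The immunoproteasome subunits Psmb10, Psmb9 and Psmb8 had differences MI minus Sham of -1.21, -0.90 and 0.28. The last was smaller than its SE (0.48), and a difference in response between the subunits was not tested. MI rat 2 and DAPA rat 3 were the highest of their group in all 3 subunits. Their start regions are shown because the rats that were high in Psmb9 and Psmb10 were also high in Psme2. The sequences are from the RefSeq promoter table (build GRCr8), which held 43 of the 48 genes. Each is read toward the gene and begins 120 bases before the annotated start. Capitals mark a match to a motif for interferon-regulated factors, GAAA, 2 bases of any kind, then GAAA, or to the core of the antioxidant response element, TGACNNNGC, which NFE2L1, the regulator of proteasome genes, can bind; both strands were searched and the motifs do not overlap.
Psmb9 (chr20:4668880-4668999, plus strand): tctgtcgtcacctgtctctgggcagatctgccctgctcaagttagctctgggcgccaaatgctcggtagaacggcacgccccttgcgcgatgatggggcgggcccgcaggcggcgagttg
Psmb10 (chr19:50743293-50743412, minus strand): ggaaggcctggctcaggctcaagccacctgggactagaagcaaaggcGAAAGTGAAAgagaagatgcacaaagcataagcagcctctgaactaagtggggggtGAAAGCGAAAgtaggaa
Psmb8 (chr20:4657026-4657151, minus strand): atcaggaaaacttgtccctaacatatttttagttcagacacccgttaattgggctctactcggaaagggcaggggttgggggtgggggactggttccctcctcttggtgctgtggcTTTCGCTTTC
Psme2 (chr15:33052752-33052871, minus strand): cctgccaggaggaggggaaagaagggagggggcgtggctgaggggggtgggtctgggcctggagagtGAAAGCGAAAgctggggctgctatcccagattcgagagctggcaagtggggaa
Psmb6 (chr10:55737768-55737887, plus strand): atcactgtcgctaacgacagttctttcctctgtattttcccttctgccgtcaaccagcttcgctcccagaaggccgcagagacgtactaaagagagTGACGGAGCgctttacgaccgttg
Psmb5 (chr15:32047380-32047499, minus strand): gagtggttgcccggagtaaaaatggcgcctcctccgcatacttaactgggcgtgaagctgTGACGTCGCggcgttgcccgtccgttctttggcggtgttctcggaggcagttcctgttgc
The interferon motif was in 7 of the 43 promoters of 300 bases (16.3%), beside 3.92% of 33469 promoters of all genes. Psmb10 held 2 matches, starting 73 and 17 bases before the start, Psme2 held 1 at 53 bases, and Psmb8 held 1 on the opposite strand that crosses the start. The other 4 were Psma4, Psmb3, Psmd7 and Psmg4. Psmb9 had no match in this window. The antioxidant core was in 8 of the 43 (18.6%), beside 12.1% of all, among them Psmb5 at 60 and Psmb6 at 24 bases before the start. In RefSeq the coding genes run Tap2, Psmb8, Tap1, Psmb9, so these subunits lie among the transporters that carry peptides to class I molecules.

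Psmb10, the inducible counterpart of Psmb7, stood at 106, 137 and 104 FPKM in the Sham rats, at 32.1, 73.1 and 50.5 in the MI rats and at 54.1, 42.3 and 96.2 in the DAPA rats. All 3 MI rats and all 3 DAPA rats lay below the lowest Sham rat. The difference MI minus Sham was -1.21 ± 0.29 (adjusted p = 0.0173), the largest of any proteasome gene tested on the authors' scale. It kept its sign without any 1 rat, between -1.49 and -0.91, and missed the threshold without Sham rat 2 (adjusted p = 0.057).

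Psmb9, the counterpart of Psmb6, stood at 77.4, 68.6 and 55.9 FPKM in the Sham rats, at 19.1, 56.3 and 40.3 in the MI rats and at 32.2, 24.2 and 83.6 in the DAPA rats. MI rat 2 came just above the lowest Sham rat, and DAPA rat 3 was the highest of all 9. The difference MI minus Sham was -0.90 ± 0.37 and did not pass (adjusted p = 0.091); without MI rat 2 it was -1.23 (adjusted p = 0.0318).

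Psmb8, the counterpart of Psmb5, stood at 15.7, 31.9 and 10.9 FPKM in the Sham rats, at 13.95, 40.2 and 18.1 in the MI rats and at 25.6, 5.79 and 34.2 in the DAPA rats. The 3 groups overlapped over nearly their whole range, and the difference MI minus Sham was 0.28 ± 0.48. DAPA rat 2 had the lowest value and MI rat 2 the highest.

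**Figure D2:**
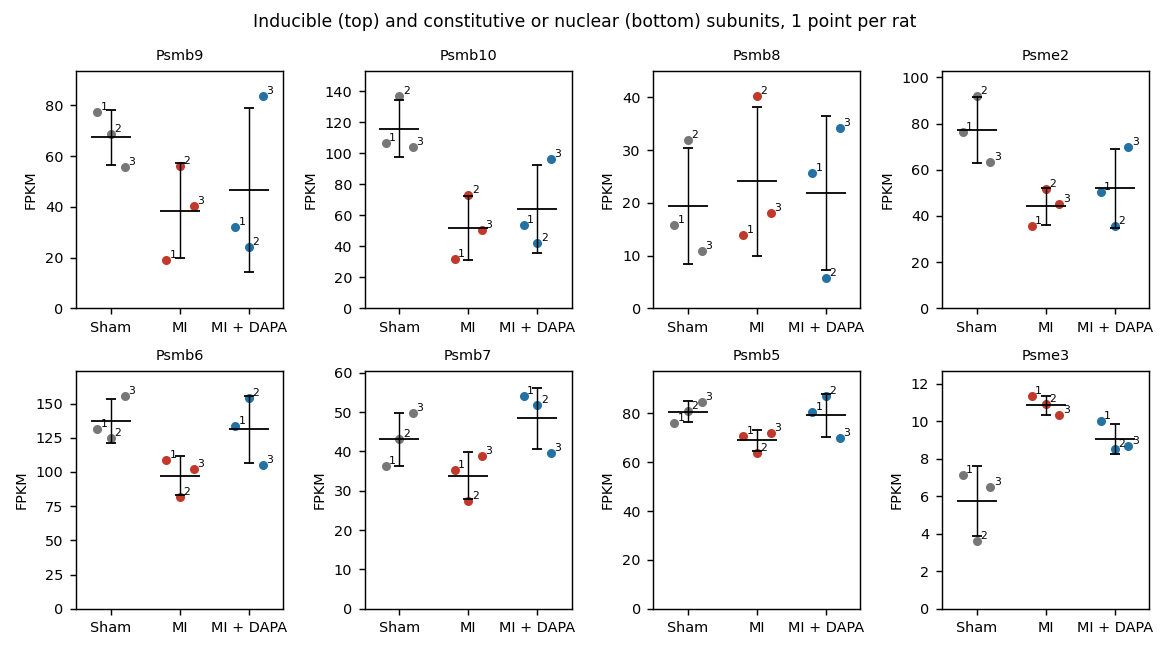
FPKM per rat (points, numbered by rat) of the inducible subunits Psmb9, Psmb10 and Psmb8 and the activator Psme2 (top) and of Psmb6, Psmb7, Psmb5 and the activator Psme3 (bottom), with the mean and SD of the 3 rats of each group, on the authors' scale. The inducible genes are the highest of their group in rat 2 of group MI and rat 3 of the DAPA group, where Psmb6 and Psmb7 are the lowest of their group.

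A share of FPKM within a rat does not depend on the scale of the library. The share of Psmb9 in the sum of Psmb9 and Psmb6 was 37.1%, 35.5% and 26.5% in the Sham rats, 15.0%, 40.8% and 28.3% in the MI rats and 19.4%, 13.6% and 44.3% in the DAPA rats. For Psmb10 and Psmb7 the share of the inducible gene was 74.5%, 76.0% and 67.6%, then 47.7%, 72.8% and 56.5%, then 50.05%, 44.98% and 70.8%. For Psmb8 and Psmb5 it was 17.1%, 28.2% and 11.4%, then 16.5%, 38.6% and 20.1%, then 24.1%, 6.24% and 32.9%. In each pair MI rat 2 and DAPA rat 3 had the highest share of their group. The log2 ratios were taken on FPKM + 1, so they are not wholly free of that scale. The mean of the 3 log2 ratios was -0.58 ± 0.46 (SD, n = 3) in the Sham rats, -0.84 ± 0.85 in the MI rats and -1.15 ± 1.09 in the DAPA rats. Over 4 ratios and 3 comparisons, 12 two-sided exact permutation tests gave p between 0.2 and 1, where 0.1 is the smallest p that 3 against 3 rats allow; the smallest adjusted value was 0.933.

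Many genes known to drive or accompany the immunoproteasome were also high in MI rat 2 and DAPA rat 3, but group Sham did not follow. There rat 2 had the highest summed FPKM of the inducible subunits, 237. It was the highest of its group in 6 of 11 interferon regulators and the lowest in 7 of 12 class I presentation genes. DAPA rat 3 was the highest of its group in 8 of 11 interferon regulators and in 9 of 12 class I presentation genes, and MI rat 2 in 9 of 11 and 11 of 12. These 2 rats were singled out from these data, and how often each was the highest over all genes was not computed. Tap1, a subunit of the transporter that carries peptides to class I molecules, stood at 14.3, 12.7 and 46.05 FPKM in the DAPA rats. It was chosen after its values were seen, and DAPA rat 3 is far above the other DAPA rats. The leukocyte markers of DAPA rat 3 summed to 307 FPKM, against 245 and 165 in the other DAPA rats. Those of MI rat 2 summed to 640 FPKM, against 269 and 292 in the other MI rats. The part of leukocytes in the level of the inducible subunits was not tested.

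**Figure D3:**
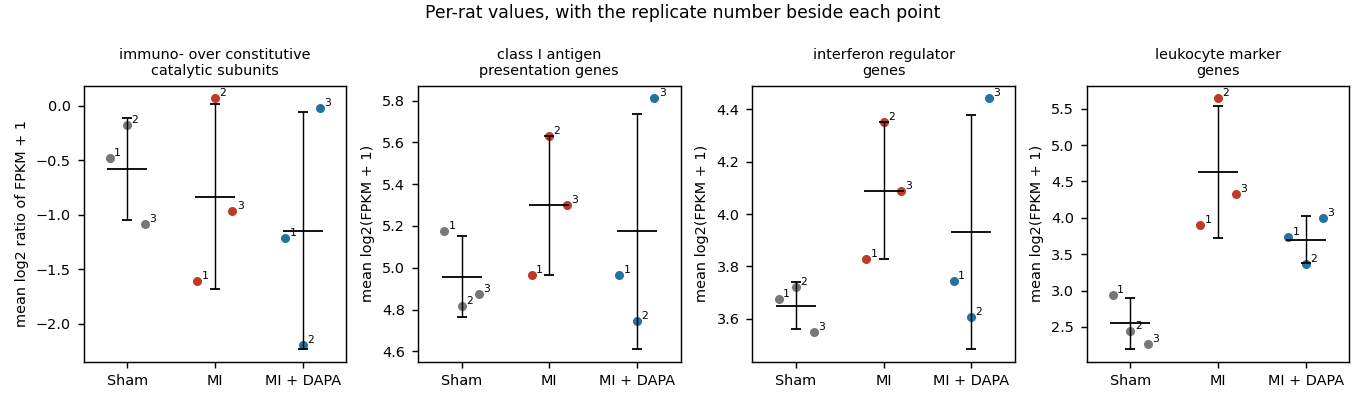
Per rat (points, numbered by rat, with the mean and SD of each group): the mean log2 ratio of inducible to constitutive catalytic subunits, and the mean log2(FPKM + 1) of class I presentation genes, interferon regulators and leukocyte markers. Rat 2 of group MI and rat 3 of the DAPA group are the highest of their groups in all 4 panels.

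Over the lists themselves, 5 of 11 interferon regulators were higher in MI vs. Sham and 0 lower (0 also at an unadjusted p under 0.05), beside 19.5% of all genes in each direction and 24.4% lower at an unadjusted p. They were led by Irf8 (1.45), Ifngr2 (1.302) and Jak1 (0.77). Of 12 class I presentation genes 3 were higher and 0 lower by limma, beside the same 19.5% (5 and 1 at an unadjusted p under 0.05, beside 24.5% and 24.4% of all genes). The 3 were Calr (1.24), Pdia3 (0.97) and Canx (0.69), chaperones of the endoplasmic reticulum that fold many glycoproteins. Tapbp (0.76) and RT1-A1 (0.62) were higher and Tap2 (-0.53) was lower only at an unadjusted p under 0.05 by limma. Tap1 (-0.17) and B2m (-0.10) had the differences closest to 0 in this list.

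DAPA vs. MI asked whether dapagliflozin changed these genes after the infarct. No gene of the 13251 tested passed an adjusted p of 0.05 by limma, in either direction (0% and 0% of all genes), the smallest adjusted p being 0.558, so the following values are not calls. At an unadjusted p under 0.05, 6 of the 44 proteasome genes tested were higher in the DAPA group and 0 were lower, beside 4.59% of all genes higher and 3.9% lower. Of the 44, 39 had a positive difference (88.6%), beside 47.2% of all genes. The median was 0.21, beside -0.02 over all genes tested. Without any 1 rat between 36 and 41 of the differences were positive, beside 46.8% to 49.2% of all genes. After scaling to all recovered reads 20 were positive (beside 25.4% of all genes) and the medians of core and cap were -0.01 and 0.04, which is 0.21 and 0.26 above the median of all genes on that scale.

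In 13 of the 44 genes all 3 DAPA rats lay above all 3 MI rats (29.5%, beside 6.63% of all genes), and in 1, Psme3, all lay below (beside 7.16% of all genes). All 14 genes of the 20S core had a positive difference, with a median of 0.21, and 16 of the 17 genes of the 19S cap had one, with a median of 0.27. The ATPases had the highest group median, 0.31, and 4 of 6 did not overlap between the groups. The 4 chaperones of the 20S core were positive with a median of 0.25. The immunoproteasome had a median of 0.19 over values of 0.29 ± 0.39 (Psmb10), 0.19 ± 0.54 (Psmb9) and -0.29 ± 0.66 (Psmb8). Each was smaller than its SE, and each changed sign in at least 1 fit without 1 rat. The activators had a median of 0.00.

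Psmg4, which helps to assemble the core, gave the smallest unadjusted p: 26.3, 22.8 and 27.4 FPKM in the MI rats against 37.7, 37.7 and 36.4 in the DAPA rats. These 2 groups lay far apart, and the DAPA rats were within the range of group Sham. The difference was 0.53 ± 0.13 (adjusted p = 0.558). Psmc5 was at 57.5, 42.7 and 54.3 FPKM in the MI rats and at 79.1, 98.9 and 60.1 in the DAPA rats, a difference of 0.60 ± 0.22 (adjusted p = 0.558). Psmd4 was at 60.1, 44.2 and 63.5 and 95.4, 85.4 and 67.5 FPKM, a difference of 0.56 ± 0.20. In both genes DAPA rat 3 was the lowest of the DAPA rats and MI rat 2 the lowest of the MI rats.

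Psma7 was at 109.8, 118 and 127 FPKM in the MI rats and at 157, 166 and 142 in the DAPA rats, a difference of 0.38 ± 0.15. The groups did not overlap, nor did they in Psmc2, at 56.97, 45.97 and 56.7 against 71.5, 73.1 and 64.7 (0.39 ± 0.15), or in Psmb7 (0.51 ± 0.19), whose values are given above. Psmd12, a lid subunit, was at 29.4, 21.4 and 33.5 FPKM in the MI rats and at 43.9, 39.5 and 32.9 in the DAPA rats (0.46 ± 0.20). There MI rat 3 reached above DAPA rat 3. Psme3 was at 10.005, 8.54 and 8.70 FPKM in the DAPA rats, between the values of groups Sham and MI, a difference from group MI of -0.24 ± 0.13. Psmd11 and Psmd14, which were called higher in MI vs. Sham, stood at 19.4, 15.4 and 17.9 and 29.5, 19.8 and 20.9 FPKM in the DAPA rats, differences from group MI of -0.02 and 0.04.

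**Figure D4:**
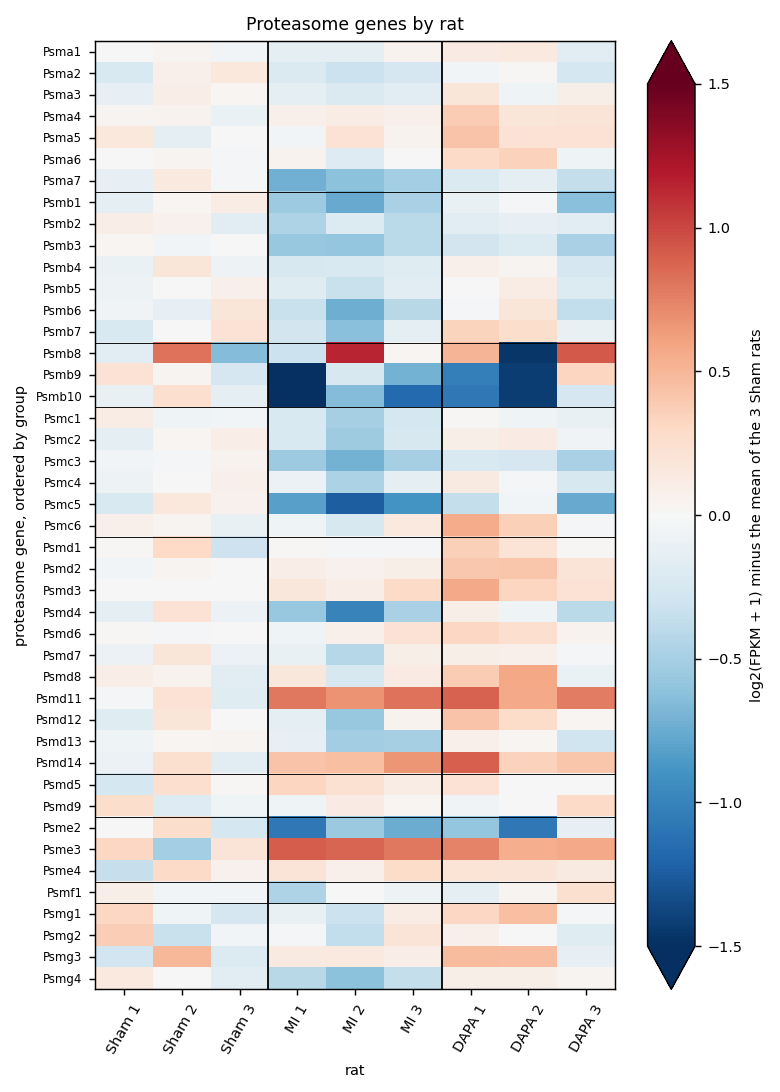
Each tested proteasome gene (rows, grouped by role) in each of the 9 rats (columns): log2(FPKM + 1) minus the mean of the 3 Sham rats on the authors' scale; colours stop at 1.5 in either direction. DAPA rats 1 and 2 are redder than the MI rats in most rows of the core and cap, DAPA rat 3 comes within the range of the MI rats in the summed core, and the rows of Psmb8, Psmb9, Psmb10 and Psme2 follow another order of rats. Scaling to all recovered reads would add about 1.10 to the median of the core in the MI columns.

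MI rat 2 and DAPA rat 3, the highest of their groups in the inducible subunits, were the lowest in most constitutive ones, while Sham rat 2 had the highest sum of its group in the inducible subunits, the core and the cap alike. DAPA rat 3 was the lowest of the DAPA rats in 15 of the 17 genes of the cap and in 11 of the 14 of the core, and MI rat 2 the lowest of the MI rats in 15 of 17 and in 9 of 14. How often each was the lowest over all genes was not computed. The cardiomyocyte markers ran alongside in MI rat 2 and DAPA rat 3, which held the lowest marker sums of their groups, 2693 and 11118 FPKM. All 10 markers had a positive difference in DAPA vs. MI, with a median of 1.32. Of these, 0 passed limma's adjusted threshold and 2 an unadjusted p under 0.05. Other rats did not all follow. MI rat 3 had a marker sum of 14031 FPKM, above every Sham rat, but its core sum of 1119 lay below every Sham rat. In group Sham the marker sum was highest in rat 3 and the core sum in rat 2. The part of cardiomyocyte content in the proteasome differences was not tested. Without DAPA rat 3, the count of higher genes at an unadjusted p under 0.05 was 14 in place of 6, beside 8.24% of all genes in place of 4.59%. It was 1 without MI rat 2, DAPA rat 1 or DAPA rat 2 (beside 1.67%, 2.21% and 1.98% of all genes) and 3 without MI rat 1 (beside 2.67%).

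DAPA vs. Sham shares its rats with the comparisons above. Of 45 genes tested 1, Psmd11, was higher in the DAPA group (0.74 ± 0.17, adjusted p = 0.0188) and 0 were lower, beside 14.5% of all genes higher and 14.1% lower. At an unadjusted p under 0.05, 5 were higher and 1 lower, beside 21.1% and 20.4% of all genes. The call for Psmd11 was lost without Sham rat 3, DAPA rat 1 or DAPA rat 3 (adjusted p up to 0.0761). The median was 0.05, with -0.04 for the core and 0.19 for the cap. Psmb10 had a difference of -0.92 ± 0.30 (adjusted p = 0.0541). Without DAPA rat 3, Psmb10 (-1.25, adjusted p = 0.0108), Psmb9 (-1.23, adjusted p = 0.0129) and Psme2 (-0.83, adjusted p = 0.0486) were lower than in group Sham. Scaled to all recovered reads, 40 of the 45 genes were higher, beside 53.7% of all genes.

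Partners of the proteasome outside the name rule were described by the same tests. Of 13 measured, 1 was higher in MI vs. Sham and 2 were lower, beside 19.5% of all genes in each direction. Sem1, the small subunit of the lid, stood at 117, 112 and 111 FPKM in group Sham, 66.7, 56.1 and 76.5 in group MI and 94.7, 121 and 83.2 in the DAPA group. Its difference was -0.77 ± 0.15 in MI vs. Sham (adjusted p = 0.00828) and 0.57 ± 0.20 in DAPA vs. MI (adjusted p = 0.558). Zfand5, which activates the proteasome in wasting muscle, was lower by limma (-0.54), and Rad23b, a shuttle that brings tagged proteins, was higher (0.51). In DAPA vs. MI 0 of the 13 passed limma's adjusted threshold and 1, Sem1, an unadjusted p under 0.05.

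Of 10 factors that drive proteasome genes or process such factors, 4 were higher in group MI and 1 was lower, beside 19.5% of all genes each way. Nfe2l1, the regulator that raises proteasome genes when the protease is impaired, stood at 15.98, 8.09 and 15.2 FPKM in group Sham, 38.4, 35.04 and 37.3 in group MI and 37.8, 28.03 and 48.4 in the DAPA group. Both infarct groups lay wholly above group Sham, with a difference of 1.48 ± 0.25 in MI vs. Sham (adjusted p = 0.00479). Foxo3 (2.15), Foxo1 (1.16) and Stat3 (0.58) were also higher in group MI, and Nfyc was lower (-1.01). In DAPA vs. MI 2 of the 10 had a positive difference, beside 47.2% of all genes, and 0 passed by limma, adjusted or not.

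Of 12 ubiquitin ligases of muscle, 3 were higher in MI vs. Sham and 2 were lower, again beside 19.5% each way. Trim63, the muscle ligase MuRF1, stood at 27.2, 72.1 and 38.03 FPKM in group Sham, 5.54, 2.15 and 10.1 in group MI and 14.5, 19.6 and 8.48 in the DAPA group, a difference of -2.82 ± 0.51 in MI vs. Sham (adjusted p = 0.00605). Mdm2 was lower (-0.85), and Itch (1.02), Fbxo30 (0.70) and Nedd4 (0.69) were higher. Fbxo32, the muscle ligase atrogin-1, had a difference of 0.56 (adjusted p = 0.108). Of 6 genes for ubiquitin and its activating enzymes, 1 was higher in MI vs. Sham, Uba1 (0.50), an activating enzyme, and 1 was lower. In DAPA vs. MI 0 genes of both lists passed limma's adjusted threshold, and Trim63 was higher at an unadjusted p under 0.05 (1.25).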

How the data were processed

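RNA-seq of the left ventricle was done by the authors on 3 rats per group at day 28, with poly-A selected libraries. The authors deposited FPKM values per gene and rat, that is, counts scaled for the length of the gene and the size of the library. The submitters' processing notes name HISAT2 2.0.5, StringTie 1.3.3b, featureCounts 1.5.0-p3 and DESeq2; the genome build and the strand setting of the counting are not given in the sources used here. FPKM are not counts, so no count test was run. The values of each gene are multiples of what 1 read is worth, and whole reads (within 0.001) were recovered for 18896 of the 18896 genes with values in at least 4 libraries; on simulated data 99.7% of reads came back exactly.

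A gene was tested if 3 or more of the 6 rats of a fit had an FPKM of 1 or more, with limma 3.58.1 (R 4.3.3) on log2(FPKM + 1), with a prior variance that follows mean expression, 2 groups per fit, no covariate and Benjamini-Hochberg adjustment over all genes tested, called under 0.05. Fold changes on this scale understate the change of low genes. In data simulated for MI vs. Sham, 94% of 200 changed genes were called, but these were given a larger change than any proteasome gene showed here. Whether differences as small as those of the proteasome genes would be called as often was not tested. For within-rat ratios, groups were compared by exact permutation (two-sided) in Python 3.11.15 (scipy 1.17.1). The labels call the samples biological replicates.

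The proteasome genes and all lists (partners, regulators, interferon regulators, class I presentation, muscle ubiquitin ligases, ubiquitin and its activating enzymes, and markers of cardiomyocytes, leukocytes, fibroblasts and endothelium) were chosen with earlier results of these data known, so lists are described by counts and medians beside all genes tested. Values per rat are given for the catalytic subunits, the activators and, in each other group, the 2 genes with the smallest p per comparison where these are discussed. Of every other list at most 3 genes per comparison with the smallest p were to be named. Stat3, Fbxo30, Nedd4, Fbxo32, Tapbp, RT1-A1, Tap1 and B2m are named beyond that limit. Promoters were read from the RefSeq table (250 bases before to 50 after the start) and searched on both strands. Values of some single list genes are not reported here. A comparison of the protein sequences was planned and not done here. Alternatives were a pseudocount of 0.1, no filter, a block for the replicate number, a joint fit of all 9 rats, removal of mitochondrial genes, quantile normalization, rows of a name added together, each rat left out in turn and the study's thresholds; scaling to all recovered reads was added after seeing the data.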

Additional observations from a re-analysis of the deposited data

How the results depend on the processing

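Most results moved little: 278 of 324 recomputed main values stayed within the spread between rats or within 1.5 times the count. The 46 others were as follows. Of 1223 recomputed values of single genes, 1177 kept their side of the threshold, 37 lost the call and 9 gained it. Of the calls, 0 turned to the opposite direction, but differences that were not called could change sign. Without 1 rat, that of Psmb8 in MI vs. Sham ran from -0.15 to 0.69. These single-gene fits do not include the scaling to all recovered reads, which was added after seeing the data and multiplies each library by a constant: it gave 39 higher and 0 lower in MI vs. Sham, 40 higher in DAPA vs. Sham, and in DAPA vs. MI 0 higher and 1 lower at an unadjusted p with 20 positive. Medians under it were 0.86 (core), 0.94 (cap), 1.21 (activators) and 0.19 (immunoproteasome) in MI vs. Sham, -0.0086, 0.045 and -0.22 (core, cap, activators) in DAPA vs. MI, and 0.84, 1.05, 0.99 and 0.16 in DAPA vs. Sham. Without a filter on low values 1 gene was higher in MI vs. Sham, 10 were higher at an unadjusted p in DAPA vs. MI, and the activator median there was 0.10. The study's thresholds left 0 higher and 1 lower in MI vs. Sham and 0 higher in DAPA vs. Sham. Quantile normalization gave core medians of -0.32 in MI vs. Sham and -0.21 in DAPA vs. Sham, and 3 lower genes in DAPA vs. Sham. Leaving out the mitochondrial genome left 3 higher at an unadjusted p in DAPA vs. MI, and 1 fit of all 9 rats gave 2 higher in DAPA vs. Sham. The causes were not tested. Without 1 rat at a time, MI vs. Sham gave 3 to 8 lower and 1 to 3 higher genes and a cap median of -0.27 to -0.011, DAPA vs. MI gave 1 to 14 higher at an unadjusted p, and DAPA vs. Sham gave 0 to 3 lower and 0 to 1 higher.

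The replicate numbers did not pair the rats: deviations of same-numbered MI and DAPA rats correlated at 0.03, -0.30 and -0.24. With the number as a block, 7 genes were lower and 2 higher in MI vs. Sham, and 1 was higher at an unadjusted p in DAPA vs. MI. Depth was lowest outside the mitochondrial genome in group Sham, and Psme1 and Psmd10 were too low to compare.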

Other observations

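Longer proteasome genes had higher differences after infarct. Across the 45 tested genes the Pearson correlation of the log10 of gene length with the difference was 0.44 in MI vs. Sham, against 0.05 across all genes tested, and across 44 genes it was -0.35 in DAPA vs. MI, against -0.06. The genes are not independent replicates, they share libraries, and these comparisons share the MI rats, so the values are given as a description.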
